A study of Mus musculus with 9 samples.

Results

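The serpin family was followed across 3 adjoining zones of the mouse stomach. Its members were chosen by name, as every probe set carrying 1 gene symbol that starts with Serpin, which gave 56 probe sets for 40 genes among the 18193 genes with 1 symbol on the array. Clade b (the Serpinb genes) held 18 of these genes and the other clades 22, of which 14 belonged to clade a. The tissue came from healthy, untreated, wild-type female C57Bl/6 mice at 3 months of age. Stripes 600 to 800 µm wide were cut side by side from the corpus, which is the acid-secreting glandular part, from the forestomach, which is lined by stratified squamous epithelium, and from the squamocolumnar junction between them. The 9 mice were divided into 3 pools of 3, called series, and every series gave 1 array per zone. An array is thus a pool of mice, not an animal, and p-values cover the spread between pools.

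Serpins are a superfamily of proteins that share one fold. Most are suicide inhibitors: a protease cleaves an exposed loop of the serpin, the loop inserts into the body of the serpin, and the protease is dragged along and trapped in a covalent complex. Clade b serpins lack a classical secretion signal and act mainly inside cells, and many of them are known from keratinocytes and white blood cells. The other clades are mostly secreted and are best known from plasma, where they control clotting, fibrinolysis and complement, although a few members inhibit nothing and serve as chaperones or signals.

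Of the 40 genes, 26 were tested, because at least 1 of their probe sets exceeded a level of 29.0 to 36.5, the 40th percentile of signals on the array in question, on 3 or more arrays: 13 of the 18 Serpinb genes and 13 of the 22 others. A gene that met this rule only through the zone where it was bright had to differ between zones, so the counts of members given here describe and do not support a result. The Serpinb genes left out were Serpinb1b, Serpinb6c, Serpinb9c, Serpinb9d and Serpinb9g, none of which exceeded a signal of 26.5 on any array. The others were Serpina1f, Serpina3a, Serpina3i, Serpina4-ps1, Serpina5, Serpina6, Serpina7, Serpina11 and Serpini2, with a highest signal of 55.5. Zones matched their labels. All 14 squamous epithelium markers measured were higher in the forestomach than in the corpus, and 9 of 12 gastric gland markers were lower and 0 higher. Of all genes tested, 30.0% were higher and 29.9% lower at an adjusted p under 0.05 by limma. The summed signal of the squamous markers ran from 1863 to 4073 in the corpus, from 79410 to 105000 in the junction and from 106100 to 113700 in the forestomach. That of the gland markers ran from 113000 to 165600, from 122800 to 140500 and from 1358 to 33660, with forestomach arrays 2 and 3 (25150 and 33660) far above array 1. Each array measures a mixture of tissues, so fewer cells of a type and less RNA per cell cannot be told apart.

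Among the Serpinb genes, those of chromosome 1 had the largest differences between forestomach and corpus. In the GRCm38.p6 gene order of RefSeq, the Serpinb genes lie in 2 groups. All 7 members on chromosome 1 with a probe set of 1 symbol were measured: Serpinb5, Serpinb12, Serpinb3a, Serpinb11, Serpinb7, Serpinb2 and Serpinb8. Serpinb13, Serpinb3d, Serpinb3b, Serpinb3c and Serpinb10 lie in the same group and were not measured. The 7 measured genes were all higher in the forestomach than in the corpus, by log2 differences of 2.67 to 6.95 (median 5.89). Of all genes tested, 4.45% were called higher there by a log2 difference of at least 2, and 1.43% by at least 4. Of the 11 Serpinb genes of chromosome 13 on the array 6 were measured. Their differences ran from -0.25 to 1.55 (median 0.67), so the 2 ranges did not overlap with the probe sets used. The second Serpinb8 probe set, at 1.65 ± 0.16, came close to Serpinb6b at 1.55 ± 0.21. The arrays of the 2 zones were fully apart for all 7 genes of chromosome 1, as they were for 33.2% of all genes in the higher and 33.2% in the lower direction. Over both groups 11 of 13 rose and 1 fell, where 59.9% of the 13637 genes tested were called (limma, Benjamini-Hochberg adjusted p under 0.05), 30.0% higher and 29.9% lower, and the median log2 difference over all genes was -0.01.

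The sequence just before the annotated start of these 7 genes is shown because they moved together and 6 of them hold a short motif there. RefSeq promoter entries of build GRCm38.p6 matched 22 of the 26 measured genes, all 7 of this group among them. The windows below hold the 150 bases before the start, 5′ to 3′ on the gene's own strand, with capitals marking TGANTCA. This is a looser form, with any central base, of TGAGTCA, the motif bound by AP-1, a dimer of Fos and Jun proteins. The central base is G in Serpinb7 and Serpinb8, and A or T in Serpinb5, Serpinb12, Serpinb11 and Serpinb2. They lie at chr1:106861025-106861174 (Serpinb5), chr1:106934299-106934448 (Serpinb12), chr1:107052304-107052453 (Serpinb3a), chr1:107362164-107362313 (Serpinb11), chr1:107422539-107422688 (Serpinb7), chr1:107511273-107511422 (Serpinb2) and chr1:107589856-107590005 (Serpinb8), on the plus strand except for Serpinb3a, which is on the minus strand. For Serpinb12 and Serpinb2, which have 2 listed starts each, the start with the lower coordinate was used.
Serpinb5: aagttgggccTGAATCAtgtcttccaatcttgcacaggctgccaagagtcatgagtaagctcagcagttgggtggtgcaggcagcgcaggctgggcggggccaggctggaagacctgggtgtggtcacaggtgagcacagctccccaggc
Serpinb12: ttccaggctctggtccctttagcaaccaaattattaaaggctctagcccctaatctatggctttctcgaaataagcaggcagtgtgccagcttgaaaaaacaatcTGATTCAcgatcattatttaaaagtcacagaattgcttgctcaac
Serpinb3a: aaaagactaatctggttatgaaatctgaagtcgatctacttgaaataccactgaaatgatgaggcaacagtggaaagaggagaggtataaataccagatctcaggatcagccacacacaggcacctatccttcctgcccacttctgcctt
Serpinb11: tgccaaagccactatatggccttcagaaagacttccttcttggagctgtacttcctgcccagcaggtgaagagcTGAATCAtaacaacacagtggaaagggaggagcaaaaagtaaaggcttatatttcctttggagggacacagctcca
Serpinb7: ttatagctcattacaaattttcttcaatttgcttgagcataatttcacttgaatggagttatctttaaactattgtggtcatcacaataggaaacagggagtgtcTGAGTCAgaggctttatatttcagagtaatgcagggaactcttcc
Serpinb2: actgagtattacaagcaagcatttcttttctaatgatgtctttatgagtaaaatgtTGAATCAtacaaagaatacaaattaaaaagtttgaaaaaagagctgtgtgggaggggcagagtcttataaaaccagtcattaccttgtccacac
Serpinb8: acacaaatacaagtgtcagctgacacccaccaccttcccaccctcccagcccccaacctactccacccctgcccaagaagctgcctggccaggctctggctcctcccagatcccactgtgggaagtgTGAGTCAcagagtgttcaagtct

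The motif was searched on both strands in the 250 bases before each start. It was present in 6 of the 7 genes of chromosome 1 (all but Serpinb3a), in 0 of the 5 measured Serpinb genes of chromosome 13 with a promoter entry, in 2 of 10 measured genes of the other clades (Serpina1b and Serpina1c), and in 7.82% of the 27025 genes of the table. It began 140 bases before the start in Serpinb5, 45 in Serpinb12, 45 in Serpinb7, 94 in Serpinb2 and 23 in Serpinb8, and 76 and 181 bases before it in Serpinb11. TATAAA was present in 4 of the 7 (Serpinb12, Serpinb3a, Serpinb7 and Serpinb2), in 0 of the 5, in 0 of the 10 and in 14.3% of the table. At the starts shown, the nearest TATAAA on either strand lay 29 bases before the start in Serpinb2, 33 in Serpinb7, 65 in Serpinb3a and 220 in Serpinb12. GGGCGG was in 1 of the 7 (Serpinb5), in 2 of the 5 (Serpinb6a and Serpinb6b) and in 2 of the 10 (Serpina12 and Serpinh1). Its share of the table was 35.4%. The p53 family half-site was in 0 of the 7, 0 of the 5, 1 of the 10 (Serpina3n) and 8.20% of the table. None of the other motifs overlapped a TGANTCA. A gene with several starts was counted if any of its windows held the motif, and a match describes letters, not a bound site. Genes and motif were picked because they matched, and the genes are related neighbours, so these counts are no test. Serpina12, with a log2 difference of 6.94 in forestomach against corpus, held no TGANTCA. Serpina1b and Serpina1c, which held it, were at -2.13 and -1.24. A link of the motif to the levels was not tested.

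Serpinb12, an intracellular inhibitor of trypsin-like proteases found in epithelia, was the brightest of the group. Its signal was 119.6, 53.1 and 82.3 on the 3 corpus arrays, 4376.1, 6562.3 and 7407.6 on the junction arrays and 11161.9, 11130.2 and 11310.1 on the forestomach arrays. The 3 zones did not overlap, and the forestomach arrays lay close together. Forestomach exceeded corpus 123-fold (log2 difference 6.95 ± 0.27, SE, n = 3 arrays per zone, limma adjusted p = 1.8e-07). A second, dimmer probe set gave a log2 difference of 4.47, and the mean of both gave 5.71.

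Serpinb2, known as plasminogen activator inhibitor of the placental type, blocks urokinase and tissue plasminogen activator. Its signal was 37.0, 21.0 and 19.4 in the corpus, 814.3, 1399.9 and 1133.5 in the junction and 3316.6, 3550.1 and 2415.3 in the forestomach. Every forestomach array lay above every junction array, and every junction array above every corpus array. The forestomach level was 88.0-fold that of the corpus (log2 difference 6.46 ± 0.25, adjusted p = 1.97e-07). With the larger pseudocount (30.9 in place of 9.8) the log2 difference was 5.78, and 2 of the 3 corpus arrays lay under the filter level.

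Serpinb7, also called megsin, is a keratinocyte serpin whose loss in people causes a thickened skin of palms and soles. It had signals of 18.9, 3.5 and 13.1 in the corpus, 161.8, 251.0 and 223.0 in the junction and 1303.1, 1388.2 and 1290.7 in the forestomach. The junction arrays lay far nearer the corpus than the forestomach on the linear scale. Forestomach against corpus gave a log2 difference of 6.02 ± 0.27 (64.9-fold, adjusted p = 3.21e-07). All 3 corpus arrays lay under the filter level, and pseudocounts of 1 and 30.9 gave 6.94 and 5.01.

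Serpinb3a, the mouse relative of the squamous cell carcinoma antigens, inhibits cysteine and serine proteases. Its signal was 12, 17.5 and 16.4 in the corpus, 702.8, 1041.0 and 1182.4 in the junction and 1317.7, 1560.0 and 1558.4 in the forestomach. The zones were again in the same order without overlap. The forestomach level was 59.4 times that of the corpus (5.89 ± 0.19 on the log2 scale, adjusted p = 1.02e-07), with values of 6.52 and 5.03 under the smaller and the larger pseudocount. Its only probe set is of the kind whose ID ends in x, which can share probes with near-identical genes, so Serpinb3a cannot be told apart here from its close copies.

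Serpinb11, an inhibitor of trypsin-like proteases in the mouse, had signals of 32.0, 43.0 and 29.5 in the corpus, 582.3, 882.8 and 975.2 in the junction and 1895.4, 1887.7 and 2008.7 in the forestomach. Forestomach exceeded corpus 43.8-fold (log2 difference 5.45 ± 0.19, adjusted p = 1.34e-07). The junction arrays lay between the zones with no overlap on either side.

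Serpinb5, or maspin, is a serpin of myoepithelial and squamous cells that does not act as a protease inhibitor. Unlike Serpinb7 and Serpinb3a, it was above the filter level on all corpus arrays, at 237.4, 214.5 and 234.3. Its signals were 1286.6, 1982.1 and 1928.7 in the junction and 2847.4, 3179.6 and 3151.5 in the forestomach. The forestomach level was 12.9-fold that of the corpus (log2 difference 3.69 ± 0.16, adjusted p = 2.98e-07), and all 4 of its probe sets rose, by 3.19 to 3.83.

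Serpinb8, an inhibitor of the proprotein convertase furin, had the smallest difference of the group. It was at 147.7, 112.8 and 157.4 in the corpus, 249.4, 519.8 and 464.5 in the junction and 883.8, 1037.8 and 869.3 in the forestomach. It was 6.34-fold brighter in forestomach than in corpus (2.67 ± 0.26 on the log2 scale, adjusted p = 2.83e-05), and no junction array overlapped with either zone. A second Serpinb8 probe set gave a smaller rise of 1.65 ± 0.16 (3.14-fold). Furin (Furin), its protease, fell in the forestomach (8.58-fold, log2 difference -3.10 ± 0.13, adjusted p = 2.77e-07).

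The squamous marker list moved with these genes, as all 14 of its measured members rose, beside 30.0% of all genes. Their median log2 difference was 5.58, and the part of the list in the 7 rises was not tested.

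**Figure D1:**
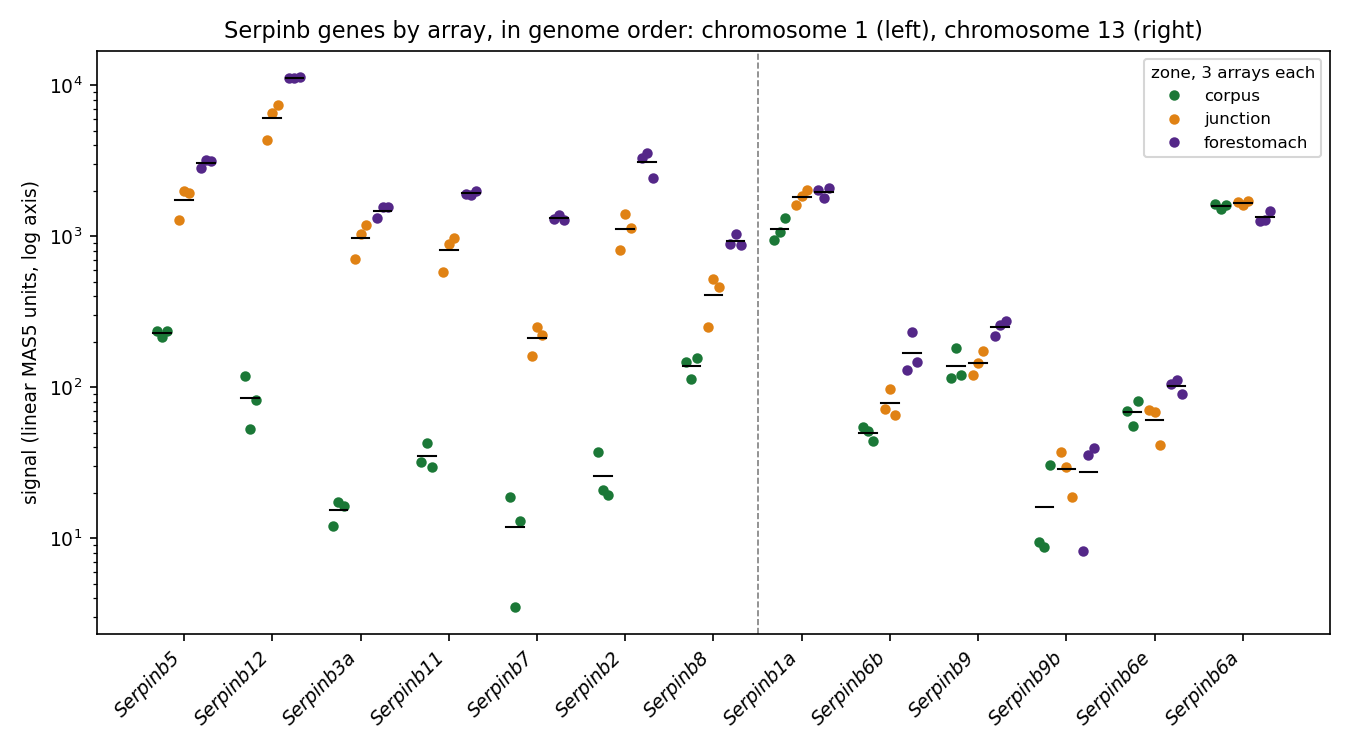
Signal of the 13 measured Serpinb genes on each of the 9 arrays (log axis), in genome order, with chromosome 1 left and chromosome 13 right of the dashed line; points are arrays and bars are means of 3. The 7 genes on the left rise from corpus through junction to forestomach without overlap, while of those on the right Serpinb6b alone is apart in all 3 zones.

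Against the corpus, the junction carried the chromosome 1 genes as well. All 7 rose, by log2 differences of 1.45 (Serpinb8) to 6.04 (Serpinb12), and of the chromosome 13 genes only Serpinb1a did. That made 8 of 13 higher and 0 lower, where 25.0% of all genes tested were called, 13.2% higher and 11.8% lower. The junction arrays were apart from the corpus arrays on the higher side for all 7 genes of chromosome 1, and for 20% of all genes. At an unadjusted p under 0.05 the counts were 9 and 0, a level for which no share of all genes was computed. Serpinb12 was 65.8-fold above the corpus (adjusted p = 1.79e-06), Serpinb3a 38.5-fold (adjusted p = 7.46e-07), Serpinb2 31.6-fold (adjusted p = 3.15e-06) and Serpinb11 18.2-fold (adjusted p = 2.04e-06). Serpinb7 was 10.6-fold (adjusted p = 3.78e-05), Serpinb5 7.18-fold (adjusted p = 5.85e-06) and Serpinb8 2.72-fold higher (adjusted p = 0.00438). Serpinb8 lost the call without series 2 or series 3 (adjusted p = 0.0760 and 0.0679, range over its alternatives 2.29e-04 to 0.0760). The mean of both Serpinb12 probe sets gave a log2 difference of 4.56, and pseudocounts of 1 and 30.9 gave 4.28 and 2.51 for Serpinb7 and 5.89 and 4.42 for Serpinb3a. With the larger one Serpinb2 was at 4.32.

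Against the forestomach, all 7 chromosome 1 genes were lower in the junction, though by very unequal amounts. Serpinb7 was 6.12-fold lower (log2 difference -2.61 ± 0.27, adjusted p = 9.76e-05), Serpinb2 2.79-fold (-1.48 ± 0.25, adjusted p = 0.00166) and Serpinb11 2.41-fold (-1.27 ± 0.19, adjusted p = 8.53e-04). Serpinb8 was 2.33-fold (adjusted p = 0.00465) and Serpinb5 1.79-fold lower (adjusted p = 0.00304), a call made by 1 of its 4 probe sets. The calls for Serpinb12 (1.88-fold, -0.91 ± 0.27, adjusted p = 0.0234) and Serpinb3a (1.54-fold, -0.62 ± 0.19, adjusted p = 0.0266), the latter the smallest of the 7, depended on single arrays. In all, 10 of 13 Serpinb genes were lower and 1 higher than in the forestomach, where 44.6% of all genes were called, 23.1% lower and 21.5% higher. For all 7 genes of chromosome 1 the junction arrays lay under the forestomach arrays without overlap, as they did for 29.8% of all genes. Serpinb12 lost the call without forestomach array 1, 2 or 3 (adjusted p = 0.0569, 0.0548 and 0.0593), junction array 1 (0.0776) or series 1, 2 or 3 (0.0548, 0.0544 and 0.0849), with a range of 0.00370 to 0.0849 over its alternatives. Serpinb3a lost it without forestomach array 2 or 3 (0.0730 and 0.0757), junction array 1 (0.0548) or series 2 or 3 (0.126 and 0.0634), with a range of 0.00687 to 0.126. Without series 3 the count of lower Serpinb genes was 6. Of the squamous markers 3 of 14 were lower and 0 higher, with a median log2 difference of -0.45. Keratin 14 (Krt14), a basal cell keratin, had a log2 difference of -0.0015 ± 0.25 and keratin 5 (Krt5), its partner, one of 0.09 ± 0.30. The 3 called lower were involucrin (Ivl, -1.83 ± 0.22, adjusted p = 2.13e-04), desmocollin 3 (Dsc3, -0.95 ± 0.18, adjusted p = 0.00293) and p63 (Trp63, -0.54 ± 0.18, adjusted p = 0.0413).

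The position of the junction between its neighbours puts these differences on one scale. It was taken on the linear signal within a series as the junction minus the corpus over the forestomach minus the corpus, so that the corpus is at 0% and the forestomach at 100%. Serpinb7 lay at 11.1%, 17.9% and 16.4% in series 1, 2 and 3. Serpinb2 lay at 23.7%, 39.1% and 46.5%, Serpinb8 at 13.8%, 44.0% and 43.1%, and Serpinb11 at 29.5%, 45.5% and 47.8%. Serpinb5 lay at 40.2%, 59.6% and 58.1%, Serpinb12 at 38.5%, 58.8% and 65.2%, and Serpinb3a at 52.9%, 66.4% and 75.6%. Serpinb7 was therefore lowest in series 1, 2 and 3 alike, and Serpinb3a highest of the 7. The median squamous marker lay at 63.1%, 73.1% and 91.5%, with single markers from a median of 27.4% (involucrin, Ivl, a cornified envelope protein) to 206% (keratin 15, Krt15). Junction array 1 was the lowest of the 3 junction arrays for each of the 7 Serpinb genes, and the summed squamous marker signal was also lowest there (79410, against 92440 and 105000), whose part in this was not tested. These positions are descriptions with no test, and the squamous tissue content of a pool, which was not measured, can shift them.

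**Figure D2:**
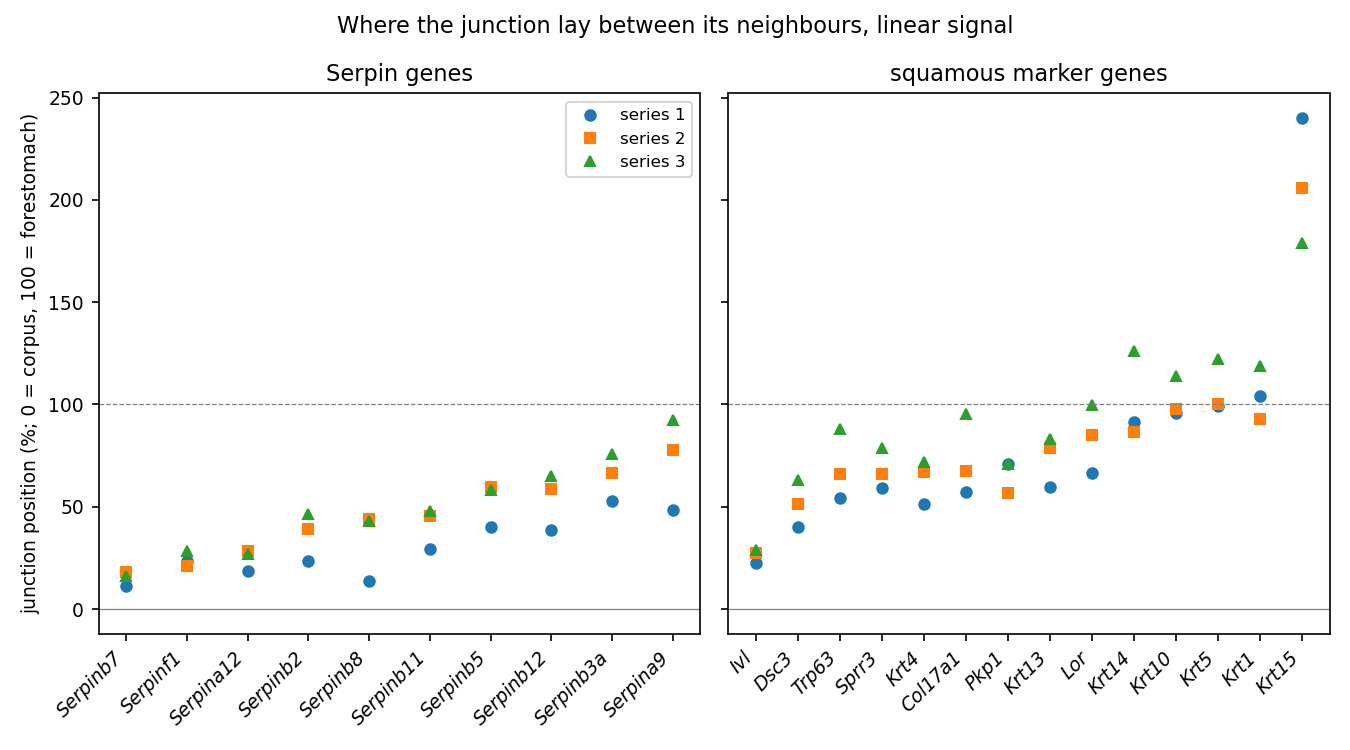
Position of the junction between corpus (0%) and forestomach (100%) on the linear signal, per series, for the 10 Serpin genes at least 2 log2 units higher in forestomach than corpus (left) and the 14 squamous markers (right). Serpinb7 lies lowest at 11.1% to 17.9% and Serpina9 reaches 92.5%, while the markers run from 22.6% for Ivl to 240% for Krt15.

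The Serpinb genes of chromosome 13 include the guards of cells against leukocyte proteases, and their differences were small. Serpinb1a, an inhibitor of neutrophil elastase, cathepsin G and proteinase 3, rose from a signal of 1110 ± 191 (mean ± SD, n = 3) in the corpus to 1822 ± 209 in the junction and 1970 ± 155 in the forestomach. Its log2 differences from the corpus were 0.72 ± 0.14 (adjusted p = 0.00787) and 0.83 ± 0.14 (adjusted p = 0.00106). A second Serpinb1a probe set, which can share probes with other genes, gave -0.35 ± 0.19 for forestomach against corpus (adjusted p = 0.140), and in the mean of both the difference was 0.24 and not called (adjusted p = 0.178). That probe set was higher in the junction than in the forestomach (0.71 ± 0.19, adjusted p = 0.0152), where the main one gave -0.12 ± 0.14 (adjusted p = 0.548). Without series 2 the rise in the junction was not called (adjusted p = 0.105, range 5.94e-04 to 0.105). Of 8 neutrophil markers 5 were measured. Against the corpus 3 rose in the forestomach and 2 in the junction, beside 30.0% and 13.2% of all genes, and 0 fell in either. The median log2 differences were 1.63 and 0.33, so the sum in the junction follows a few of these genes and not the list as a whole. Their summed signal ran from 88.9 to 153.3 in the corpus, 1330 to 2527 in the junction and 1052 to 1455 in the forestomach, and their part in the Serpinb1a values was not tested.

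Serpinb9, which protects cells from granzyme B, was at 139 ± 37.4 in the corpus, 146 ± 26.6 in the junction and 250.3 ± 29.7 in the forestomach. It rose in the forestomach (log2 difference 0.83 ± 0.19, adjusted p = 0.00559, 0.0645 without series 3) and was lower in the junction than there (-0.75 ± 0.19, adjusted p = 0.0132). The latter call was lost without series 1 or 3 (adjusted p = 0.0547 and 0.0546). Its second probe set gave 0.77 ± 0.16 and -0.98 ± 0.16 for the same comparisons. Of 9 T and NK cell markers 3 were measured. In the forestomach against the corpus 0 were higher and 1 lower, beside 30.0% and 29.9% of all genes. Serpinb6b, a relative of Serpinb6a, had the largest rise on chromosome 13, from 49.9 ± 5.25 to 169 ± 53.9 in the forestomach (2.92-fold, adjusted p = 2.74e-04), with forestomach array 2 at 230.8 above the others at 130.9 and 146.0. It was 2.0-fold lower in the junction than in the forestomach (adjusted p = 0.00515, 0.0505 without series 3).

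Serpinb6a, an inhibitor of cathepsin G, was the only Serpinb gene lower in the forestomach (1343 ± 114, against 1593 ± 62.8 in the corpus and 1674 ± 52.6 in the junction). The log2 difference from the corpus was only -0.25 ± 0.091 (adjusted p = 0.0418). It lost the call under 14 of 23 alternatives, among them without any 1 array other than forestomach array 3 (0.0529 to 0.128), without series 1, 2 or 3 (0.282, 0.148 and 0.0750) and after median centring (0.316). Its higher level in the junction than in the forestomach (0.32 ± 0.091, adjusted p = 0.0198) was lost under 8 of 23, namely without forestomach array 1 or 2, junction array 1 or 3, or series 1, 2 or 3 (0.0507 to 0.173) and after median centring (0.0502). Serpinb6e was at 69.0 ± 13.1, 60.4 ± 16.3 and 102 ± 11.1 in corpus, junction and forestomach, on a single probe set of the kind that can share probes with near-identical genes. Its rise from corpus to forestomach (adjusted p = 0.0485) was lost with the series as a block (adjusted p = 0.0706) and under 11 of the other alternatives, without corpus array 1 or 2, any forestomach array, junction array 2 or series 1 or 2 among them (0.0541 to 0.307). Its lower level in the junction than in the forestomach (-0.69 ± 0.20, adjusted p = 0.0189) was lost without forestomach array 1 or 2 or series 1 or 2 (0.0537 to 0.0782). Serpinb9b, an inhibitor of granzyme M, reached the filter level on 3 arrays only and passed in no comparison (adjusted p = 0.326 to 0.823).

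Genes of the other clades moved in both directions. Of the 13 measured, 6 were higher and 3 lower in the forestomach than in the corpus, beside 30.0% and 29.9% of all genes tested, and their median log2 difference was -0.26.

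Serpina12, or vaspin, a secreted inhibitor of the skin protease kallikrein 7, had the largest log2 difference of the other clades. Its signal was 20.7, 5.4 and 22.5 in the corpus, 583.8, 831.9 and 830.6 in the junction and 3075.0, 2935.6 and 3043.4 in the forestomach. The zones did not overlap, and all corpus arrays lay under the filter level. Forestomach exceeded corpus 123-fold (log2 difference 6.94 ± 0.28, adjusted p = 2e-07), junction exceeded corpus 30.4-fold (adjusted p = 5.3e-06), and the junction lay 4.04-fold below the forestomach (adjusted p = 4.87e-04). Pseudocounts of 1 and 30.9 gave 7.67 and 6.04 for forestomach against corpus and 5.64 and 4.05 for junction against corpus, and the mean of its 2 probe sets gave 5.25 and 3.43. The junction position was 18.4%, 28.2% and 26.8% in series 1, 2 and 3.

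Serpina9, known as centerin from germinal centre B cells, lies next to Serpina12 on chromosome 12. It was at 8.9, 7.8 and 1.9 in the corpus, 188.2, 269.9 and 355.8 in the junction and 379.5, 344.6 and 384.7 in the forestomach. Both squamous-bearing zones lay far above the corpus, and junction array 3 reached into the forestomach range. The forestomach was 24.2-fold (log2 difference 4.60 ± 0.24, adjusted p = 7.5e-07) and the junction 17.4-fold above the corpus (4.12 ± 0.24, adjusted p = 6.9e-06), whereas junction and forestomach were not shown to differ (-0.48 ± 0.24, adjusted p = 0.142). Pseudocounts of 1 and 30.9 gave 5.87 and 3.44, and 5.38 and 2.99, for the first 2 differences.

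Serpinf1, Serping1, Serpinh1 and Serpini1 were above the filter level on every array and had their highest mean signal in the forestomach. Serpinf1, the pigment epithelium-derived factor, limits vessel growth and inhibits no protease. It was at 167.0, 217.2 and 151.7 in the corpus, 309.7, 341.3 and 305.2 in the junction and 776.6, 803.5 and 689.4 in the forestomach, with no overlap between zones. It was 4.1-fold brighter in forestomach than in corpus (2.04 ± 0.14 on the log2 scale, adjusted p = 3.03e-06), and the junction 1.76-fold above the corpus (adjusted p = 0.00331, 0.0524 without series 1) and 2.33-fold below the forestomach (adjusted p = 1.59e-04). Its second probe set gave 5.50-, 2.89- and 1.91-fold, the last without a call when all probe sets were tested (adjusted p = 0.0676).

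Serping1, the inhibitor of the first complement component, went from 1781 ± 51.0 in the corpus to 2492 ± 158 in the junction and 4107 ± 350 in the forestomach. The log2 differences were 1.20 ± 0.10 for forestomach against corpus (adjusted p = 9.32e-06), 0.48 ± 0.10 for junction against corpus (adjusted p = 0.00771) and -0.72 ± 0.10 for junction against forestomach (adjusted p = 4.42e-04). The second was lost without series 1, 2 or 3 (adjusted p = 0.0784, 0.0749 and 0.0674). Its target proteases C1ra and C1s1 rose as well in the forestomach, by 1.14 ± 0.11 (adjusted p = 3.18e-05) and 1.36 ± 0.11 (adjusted p = 7.56e-06).

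Serpinh1, the collagen chaperone of the endoplasmic reticulum, was at 942 ± 254, 1106 ± 105 and 1727 ± 354 in corpus, junction and forestomach. It rose in the forestomach (log2 difference 0.88 ± 0.20, adjusted p = 0.00505, 0.0571 without series 3), and its second probe set, of similar brightness, gave 1.42 ± 0.20. The probe set used is of the kind that can share probes with other genes. The junction was not shown to differ from the corpus (0.26 ± 0.20, adjusted p = 0.390). It was lower than the forestomach (-0.62 ± 0.20, adjusted p = 0.0341), a call lost without forestomach array 2 or 3, junction array 1 or 3, series 1 or 3, or the filter (0.0537 to 0.143). Neuroserpin (Serpini1), an inhibitor of tissue plasminogen activator made by neurons, was at 87.2 ± 2.66, 85.4 ± 8.75 and 117.5 ± 19.8. Its rise in the forestomach (0.38 ± 0.13, adjusted p = 0.0311, and 0.94 ± 0.20 in its second probe set) was lost, among others, without any corpus array, forestomach array 1 or 3 or series 1 or 3 (0.0575 to 0.174), and its lower level in the junction (-0.41 ± 0.13, adjusted p = 0.0303) under 11 of 23 alternatives, among them without forestomach array 1 or 3, junction array 1 or 2 or series 1 or 3 (0.0853 to 0.247). Of the fibroblast markers 8 of 10 rose in the forestomach against the corpus and 0 fell, and of the smooth muscle markers all 9 rose. Of all genes, 30.0% rose and 29.9% fell in that comparison. The summed fibroblast signal ran from 17720 to 20380 in the corpus, 24130 to 25840 in the junction and 33140 to 41300 in the forestomach, and that of smooth muscle from 21510 to 31390, 24490 to 29230 and 57130 to 62600. Their part in the rises of Serpinf1, Serping1, Serpinh1 and Serpini1 was not tested.

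Antitrypsin copies and heparin cofactor II were dim and lower in the forestomach. Serpina1b, a copy of the elastase inhibitor antitrypsin, was at 65.1, 43.5 and 55.2 in the corpus, 38.3, 41.8 and 16.9 in the junction and 18.2, 0.7 and 0.8 in the forestomach. Forestomach array 1 thus overlapped with the junction, and it was the forestomach array with the lowest gland marker sum. It fell in the forestomach (log2 difference -2.13 ± 0.40, adjusted p = 0.00171), with -3.82 and -1.22 under pseudocounts of 1 and 30.9, and the junction was higher than the forestomach (1.47 ± 0.40, adjusted p = 0.0163). The latter call was lost without forestomach array 2 or 3, junction array 1 or 2 or series 2 or 3 (0.0554 to 0.171), and pseudocounts of 1 and 30.9 gave 3.00 and 0.76. Serpina1c, another copy, went from 44.2 ± 3.69 in the corpus to 28.6 ± 5.11 in the junction and 13.7 ± 7.59 in the forestomach, a fall by 1.24 on the log2 scale from corpus to forestomach (adjusted p = 8.17e-04). The junction was higher than the forestomach (0.74 ± 0.21, adjusted p = 0.0174), a call lost without forestomach array 2 or 3, junction array 2 or series 2 or 3, and with limma's trend and robust options (0.0555 to 0.181). These copies are near-identical genes whose signals cannot be fully separated. Heparin cofactor II (Serpind1), a thrombin inhibitor, was at 60.9 ± 2.74 in the corpus, 31.1 ± 5.24 in the junction and 42.4 ± 9.38 in the forestomach. It fell in the junction (-0.80 ± 0.14, adjusted p = 0.00473, 0.0827 without series 3) and in the forestomach (-0.45 ± 0.14, adjusted p = 0.0232). The latter was lost under 9 of 22 alternatives, without corpus array 2 or 3, forestomach array 1 or 3, or series 1 or 3 (0.0521 to 0.155) and after quantile normalization, median centring or with trend and robust options (0.0810, 0.0757 and 0.112). Serpina10, Serpinc1 and Serpinf2, with mean signals of 19.7 to 70.2 in every zone, passed in no comparison (adjusted p = 0.0882 to 0.923). Of the liver markers 4 of 8 were measured. All 4 were lower in the forestomach than in the corpus, beside 29.9% of all genes. Their summed signal was 17450 to 22930 in the corpus, 12280 to 15740 in the junction and 37.1 to 405.5 in the forestomach. The gastric gland markers moved the same way, and the part of either list in these falls was not tested.

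Serpina3n, an acute-phase inhibitor of leukocyte proteases, was the one measured member called higher in the junction against each neighbour taken singly. It was at 158.7, 163.2 and 357.5 in the corpus, 409.5, 347.7 and 525.4 in the junction and 189.5, 152.6 and 181.7 in the forestomach. All junction arrays lay above the forestomach, but corpus array 3 lay above junction array 2. The junction was 2.35-fold above the forestomach (log2 difference 1.23 ± 0.29, adjusted p = 0.00888) and 1.96-fold above the corpus (0.97 ± 0.29, adjusted p = 0.0423). The second call was lost under 13 of 23 alternatives, without corpus array 1 or 2, any forestomach or junction array, or series 1 or 2 among them (0.0559 to 0.227), and the first without series 1 or 2 (0.0542 and 0.0507). In the test that asks for a gene above or below both neighbours, Serpina3n had an unadjusted p of 0.00982 and an adjusted p of 0.452. No Serpin gene passed that test by limma, beside 0.198% of all genes above and 0.0147% below. At an unadjusted p under 0.05 there were 1 above (Serpina3n) and 1 below (Serpind1). The share of all genes at that level was not computed, so these counts cannot be judged against it. Macrophage markers rose in 6 of 8 in the junction against the corpus, beside 13.2% of all genes. Their summed signal was 6133 to 6396 against 3489 to 4115 (5464 to 7760 in the forestomach). Between junction and forestomach 0 of the 8 were called, with a median log2 difference of -0.019. The part of macrophages in the Serpina3n values was not tested.

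**Figure D3:**
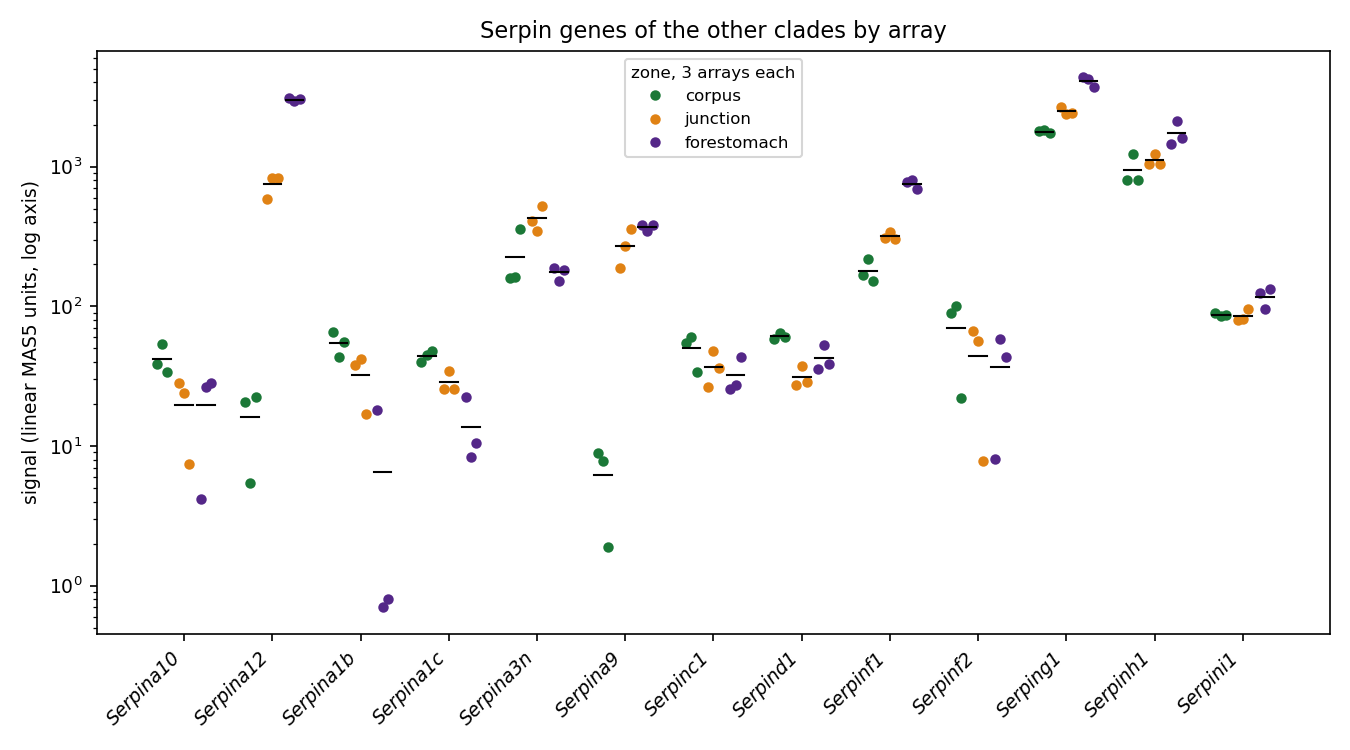
Signal of the 13 measured Serpin genes of the other clades on each of the 9 arrays (log axis); points are arrays and bars are means of 3. Serpina12 and Serpina9 rise from corpus to forestomach without overlap between these zones, Serpinf1 and Serping1 are bright in every zone, and Serpina1b drops to 0.7 and 0.8 on 2 forestomach arrays.

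**Figure D4:**
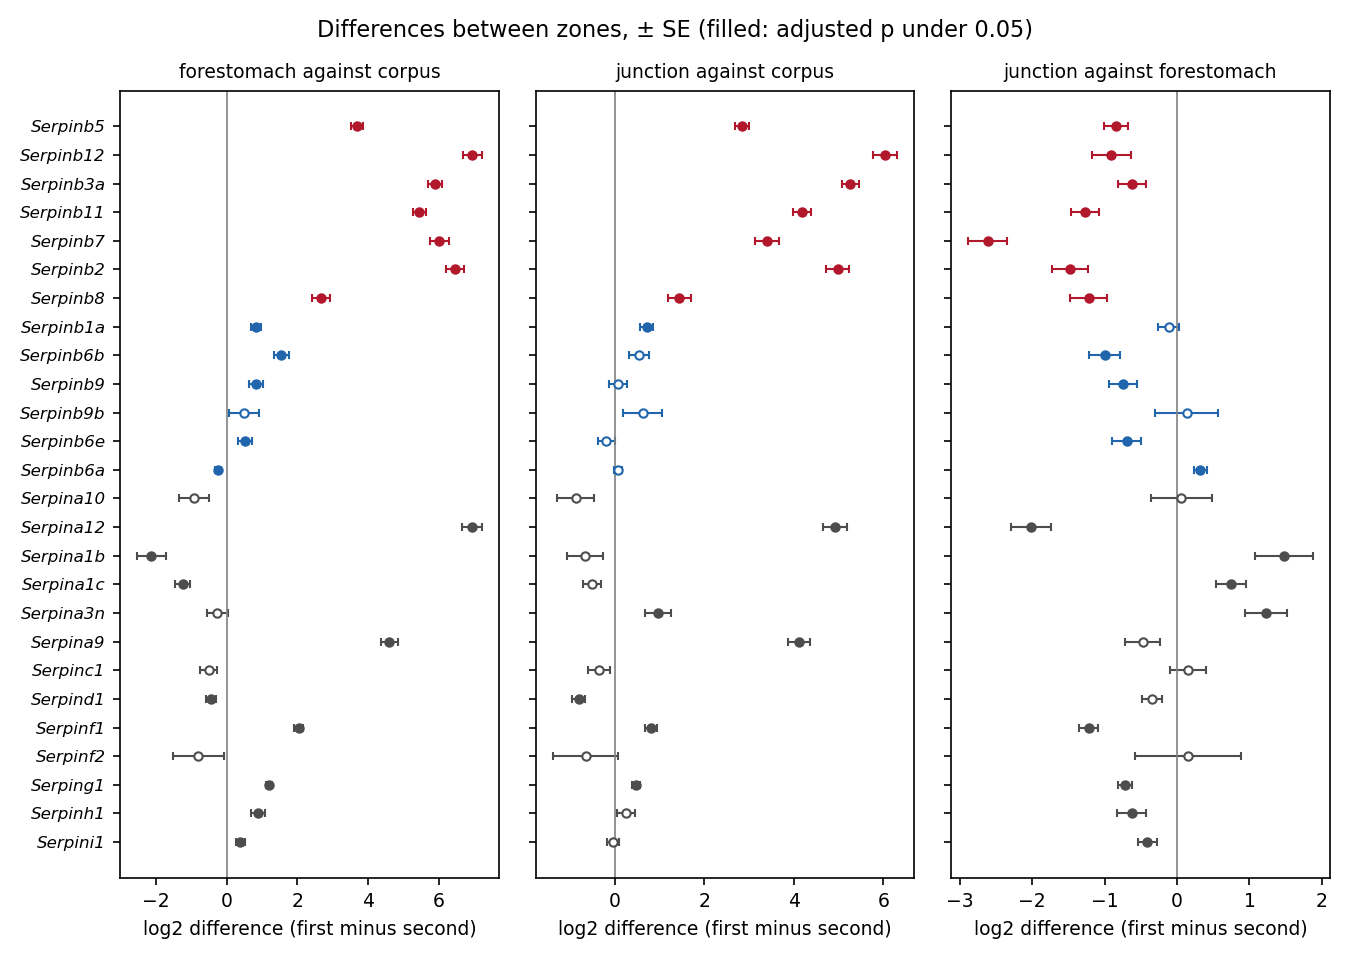
Log2 difference ± SE of the 26 measured Serpin genes in each comparison (first zone minus second), with Serpinb genes of chromosome 1 in red, of chromosome 13 in blue and other clades in grey; filled points have an adjusted p under 0.05. The red points lie at 2.67 to 6.95 in forestomach against corpus and at -2.61 to -0.62 in junction against forestomach.

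Proteases, cofactors and clearance receptors that serpins act on changed in both directions. Of the 56 genes in this list 44 were measured. In the forestomach against the corpus 19 rose and 19 fell, beside 30.0% and 29.9% of all genes, and the median log2 difference was 0.14. The 5 largest rises were all kallikreins, the skin proteases Klk7 (142-fold), Klk13 (88.6-fold), Klk5 (86.9-fold), Klk8 (66.0-fold) and Klk10 (29.3-fold). Klk7, the target of Serpina12, went from 31.1 ± 28.6 to 4738 ± 265 (adjusted p = 4.08e-06). The largest falls were those of the tissue kallikrein Klk1 (29.3-fold), the mast cell proteases Mcpt2 and Mcpt1 (25.8- and 8.71-fold), the growth factor activator Hgfac (10.6-fold) and Furin. In the junction against the corpus 15 rose and 2 fell (13.2% and 11.8% of all genes), with the same 5 kallikreins largest (15.7-fold for Klk8 to 50.6-fold for Klk7), and the falls were Furin (2.15-fold, adjusted p = 5.77e-04) and vitronectin (Vtn), the cofactor of plasminogen activator inhibition (1.58-fold, adjusted p = 0.0163). In the junction against the forestomach 19 were higher and 13 lower (21.5% and 23.1% of all genes). Klk6 (5.13-fold), Mcpt4 (4.57-fold), Klk8 (4.22-fold), Klk5 (3.18-fold) and Klk7 (2.81-fold) were lowest relative to the forestomach. Mcpt2 (36.2-fold), Klk1 (28.7-fold), Mcpt1 (19.7-fold), Hgfac (13.8-fold) and protein C (Proc, 6.14-fold) were highest.

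Single target and receptor genes did not all follow their serpins. Cathepsin L (Ctsl), a lysosomal protease of the kind Serpinb3a relatives block, rose 3.65-fold in the forestomach (1911 ± 163 to 6976 ± 43.9, adjusted p = 5.78e-06). Plaur, which encodes the cell surface receptor of urokinase, fell 3.05-fold there (185 ± 44.1 to 53.9 ± 12.5, adjusted p = 1.18e-04) and was not shown to differ between junction and corpus (adjusted p = 0.957). Tissue plasminogen activator (Plat) did not pass (log2 difference 0.31 ± 0.12, adjusted p = 0.0509). The serpin clearance receptor gene Lrp1 rose 1.61-fold in the forestomach (adjusted p = 9.51e-04). Ctsl, Plaur, Plat, Lrp1, C1ra and C1s1 were named after their values were seen.

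Protease inhibitors outside the serpin family rose in 13 of 18 measured genes and fell in 2 in the forestomach against the corpus, beside 30.0% and 29.9% of all genes tested. The cystatins Cst6 (149.7-fold) and Csta1 (83.6-fold), the kallikrein inhibitor Spink5 (139.7-fold), Wfdc5 (26.1-fold) and the leukocyte protease inhibitor Slpi (24.8-fold) were largest. The falls were the matriptase inhibitor Spint2 (2.36-fold) and Wfdc2 (1.36-fold). In the junction 11 rose and 0 fell against the corpus (13.2% and 11.8% of all genes), and 4 were higher and 11 lower than in the forestomach (21.5% and 23.1%). Among the higher ones Wfdc2 stood at 1279 ± 77.8 in the junction against 291 ± 25.7 in the forestomach (4.29-fold, adjusted p = 6.67e-06).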

How the data were processed

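Biotin-labelled cRNA of 9 pools of tissue (5 µg total RNA each, Trizol) was hybridised to 1 Affymetrix mouse array per pool. Per the submitters' processing notes, MAS5 made the intensity values that the authors deposited, which are linear. Which version and options were set is not given in the sources used here. The trimmed mean of every array (2% off each end) is 200.0. MAS5 leaves dim signals noisy. Of 45101 probe sets, 64 controls were left out, and the 2016 platform annotation, updated by Entrez ID to GRCm38.p6, gave 34945 one symbol. A gene with several probe sets past the filter was represented by the one with the highest mean log2 value, for 13637 genes, and 3 probe sets with several Serpin symbols were not used. log2(signal + 9.8), the pseudocount being the median 20th percentile, was fitted over all these genes with limma 3.58.1 in R 4.3.3 (1 mean per zone, all 9 arrays, 6 residual and 2.56 prior degrees of freedom, two-sided, Benjamini-Hochberg, threshold 0.05). The fit was tested on simulated data. A fold is on this scale and understates dim genes. Being above or below both neighbours was tested by the larger p of the junction comparisons, adjusted over all genes.

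Members, lists, motifs and tests were chosen with earlier results of these data known. Every measured Serpinb gene is named, other clades if past the threshold with a log2 difference of at least 1 or on a short list (here Serpinh1, Serpinf1, Serping1, Serpini1 and Serpind1), and of the protease and inhibitor lists the 5 largest changes per direction without overlap. Serpina10, Serpinc1 and Serpinf2 are named beyond that rule. Arrays of one series share mice, so series pairs them. Deviations from zone means correlated at r from -0.0287 to 0.123 within series (9 pairs, mean 0.0329). Alternatives were other pseudocounts (1 and 30.9), filters, scalings, probe set choices, limma options, series as a block, only 6 arrays, and leaving out each array or series. The number of arrays limits precision. Figures used Python 3.11.15 and matplotlib 3.10.9.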

Additional observations from a re-analysis of the deposited data

How the results depend on the processing

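Of 54 calls of single Serpin genes, 30 held under every alternative run for them (23, or 22 for Serpina1b and Serpina1c, which the stricter filter left out), 24 were lost under at least 1 and 0 reversed. The calls of forestomach against corpus held for the 7 Serpinb genes of chromosome 1, Serpina12, Serpina9, Serpinf1, Serping1, Serpina1b, Serpina1c and Serpinb6b. Counts are given here as main value first. In forestomach against corpus, the Serpinb genes higher (11) ran from 10 to 11 on leaving out an array or series and were 10 with the series as replicate block. Those lower (1, Serpinb6a) ran from 0 to 1 and were 0 under median centring, all probe sets and only the 6 arrays. Other clades lower (3) were 6 without the filter and 0 with the stricter one, which tested 7 of these genes. In junction against corpus, other clades higher (5) ran from 2 (without series 1) to 5 and were 3 without series 2, and other clades lower (1) ran from 0 (without series 3) to 2 (without forestomach array 1) and were 2 without the filter, 0 with the stricter one and 2 with only the 6 arrays. In junction against forestomach, Serpinb higher (1) ran from 0 to 1, with the arrays and series named beside Serpinb6a, and was 0 under median centring and 2 with all probe sets, the second being Serpinb1a. Serpinb lower (10) ran from 6 (without series 3) to 10. Other clades higher (3) ran from 0 (without series 2) to 3, were 1 without forestomach array 2 or 3, junction array 2 or series 3, and were 1 with the stricter filter, and other clades lower (5) ran from 3 (without forestomach array 3, junction array 1 or series 1) to 5 and were 3 without the filter. In the replicate block fit no count moved by over 1.5 times: it ended 1 call of a named gene, Serpinb6e in forestomach against corpus (adjusted p = 0.0706), and raised the other clades lower in junction against forestomach from 5 to 6. The causes were not tested. Median centring set the median of all genes at 0.098 for forestomach against corpus, from -0.012. Dim genes near the filter level, such as Serpina1b and the corpus values of Serpinb7, have sizes that follow the pseudocount.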

Other observations

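The neighbours of the Serpinb genes on chromosome 1 differed between forestomach and corpus by less than most of the group. In the RefSeq gene order, the 3 protein-coding genes before the group, Bcl2, Kdsr and Vps4b, had log2 differences of -0.15 ± 0.21, -0.13 ± 0.11 and 0.21 ± 0.11, and none passed (limma adjusted p = 0.571, 0.334 and 0.147). The genes measured after it, Cdh19 and Dsel, rose by 1.66 ± 0.19 (adjusted p = 9.43e-05) and 0.91 ± 0.11 (adjusted p = 1.31e-04), against 2.67 and 1.65 in the probe sets of Serpinb8, the lowest of the group, so that Cdh19 rose about as much as the smaller of these. Beside the chromosome 13 group, Wrnip1 on one side (0.13 ± 0.082, adjusted p = 0.204) and Nqo2 and Bphl on the other (-0.17 ± 0.14 and -0.08 ± 0.15, adjusted p = 0.321 and 0.654) did not pass, whereas Gmds fell (-4.57 ± 0.16, adjusted p = 1.22e-07). On chromosome 12, Serpina9 and Serpina12 lie side by side and rose by 4.60 and 6.94, while Serpina1c and Serpina1b, in the same group of genes, had log2 differences of -1.24 and -2.13.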
